A study of Mus musculus with 4 samples.

Results

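The widest open regions of the WT liver were 631 ATACseq peaks of 600 bp or more, out of 10060 WT peaks on chromosomes 1 to 19. They were selected on their measured width alone from the deposited WT list of 10758 peaks, leaving out 3 to 8 Mb of chromosome 14. Their width, and the fold and q-value that come from the same pileup, are therefore descriptions and not findings, whereas genes, sequence, H2A.Z and the Uhrf1hepKO liver played no part in the choice.

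The data came from male C57Bl/6 mice of 8 to 12 weeks on a normal diet. The WT liver carried Uhrf1 fl/fl alleles without Cre, and the Uhrf1hepKO liver was Uhrf1 fl/fl;Alb:Cre, in which Cre is driven by the albumin promoter and so acts in hepatocytes, while the other cells of the liver keep the gene. ATACseq and ChIPseq for H2A.Z were each done on 1 liver per genotype, the same livers for both assays, which gives 4 libraries. On chromosomes 1 to 19 without that stretch, the Uhrf1hepKO ATACseq list held 10117 peaks and the WT and Uhrf1hepKO H2A.Z lists 50622 and 46341. Peak lists do not show the deleted allele, so the genotypes could not be checked here. With 1 library per genotype and assay there is no replicate error and no test between genotypes, and the Wilson 95% intervals given for shares cover counting error only.

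ATACseq uses the Tn5 transposase to cut DNA that nucleosomes leave free, so a peak marks an open site and its width marks how far the opening reaches. In most tissues the sites that are open for long stretches are the CpG islands at the promoters of broadly expressed genes, which stay unmethylated and are flanked by nucleosomes that carry the histone variant H2A.Z. UHRF1 recruits the maintenance DNA methyltransferase to replicated DNA, and repeats are a main target of the methylation it keeps. Sequence that is present in many copies is hard to place reads on, so peaks of such sequence are given as a class of their own.

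The members were put into 3 classes. A total of 323 were coding promoters, meaning that the annotated 5' end (TSS) of a protein-coding gene lay inside. Another 214 held no coding TSS. The remaining 94 were of recurring sequence, in which 50% or more of the 32-mers occurred more than once on chromosomes 1 to 19, X and Y, and 13 of these also held a coding TSS. They were 14.9% (12.3 to 17.9) of the wide peaks, against a background of 9.45%. Examples of each class are printed here with their CpGs in capitals, from GRCm38 and free of annotated exons, because the density of CpGs varied widely within and between the classes.

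The first is the stretch between the starts of a head-to-head promoter, on the plus strand. Hsp90b1, a chaperone of the endoplasmic reticulum, and Ttc41 start on either side of chr10:86705511-86705810, which has 22 CpGs in 300 bp.
Hsp90b1 and Ttc41: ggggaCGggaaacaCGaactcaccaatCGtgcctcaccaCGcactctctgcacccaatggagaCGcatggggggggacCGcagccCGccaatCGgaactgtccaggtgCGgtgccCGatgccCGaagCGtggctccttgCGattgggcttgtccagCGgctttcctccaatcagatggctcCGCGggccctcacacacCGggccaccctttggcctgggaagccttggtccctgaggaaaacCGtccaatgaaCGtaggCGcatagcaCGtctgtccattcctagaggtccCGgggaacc

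The next set are promoters with a single coding TSS, on the strand of the gene. For Rpl7, a protein of the large ribosomal subunit, and Arf1, a small GTPase of the Golgi, the 200 bp before the TSS are shown, at chr1:16104663-16104862 and chr11:59228271-59228470. They hold 13 and 25 CpGs. For Nr1d2, the circadian repressor REV-ERB beta, and Armc8, a subunit of the CTLH ubiquitin ligase, the stretches lie downstream of the TSS at chr14:18238391-18238690 and chr9:99568269-99568568, with 42 and 30 CpGs in 300 bp. The 200 bp before the TSS of Pck1, the enzyme that commits carbon to gluconeogenesis, at chr2:173152848-173153047, hold only 4 CpGs.
Rpl7: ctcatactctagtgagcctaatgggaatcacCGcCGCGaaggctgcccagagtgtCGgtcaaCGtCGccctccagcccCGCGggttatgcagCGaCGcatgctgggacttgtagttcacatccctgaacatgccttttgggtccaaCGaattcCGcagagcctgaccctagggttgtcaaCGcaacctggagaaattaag
Arf1: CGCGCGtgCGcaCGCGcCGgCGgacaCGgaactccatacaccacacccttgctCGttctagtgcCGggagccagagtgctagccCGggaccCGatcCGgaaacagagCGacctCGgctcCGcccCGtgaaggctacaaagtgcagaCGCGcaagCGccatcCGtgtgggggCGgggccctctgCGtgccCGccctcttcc
Nr1d2: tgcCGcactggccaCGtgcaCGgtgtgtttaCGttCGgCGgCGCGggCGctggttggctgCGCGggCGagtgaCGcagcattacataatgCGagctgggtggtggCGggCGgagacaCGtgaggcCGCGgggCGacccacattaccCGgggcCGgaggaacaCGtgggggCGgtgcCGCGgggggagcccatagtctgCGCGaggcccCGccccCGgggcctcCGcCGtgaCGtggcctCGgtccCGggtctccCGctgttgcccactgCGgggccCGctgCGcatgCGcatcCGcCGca
Armc8: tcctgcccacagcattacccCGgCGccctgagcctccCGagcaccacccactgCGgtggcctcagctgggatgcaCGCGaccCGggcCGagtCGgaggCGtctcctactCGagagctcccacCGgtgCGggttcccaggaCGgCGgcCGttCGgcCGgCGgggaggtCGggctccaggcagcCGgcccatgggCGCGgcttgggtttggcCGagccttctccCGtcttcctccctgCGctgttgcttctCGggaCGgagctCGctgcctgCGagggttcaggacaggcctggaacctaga
Pck1: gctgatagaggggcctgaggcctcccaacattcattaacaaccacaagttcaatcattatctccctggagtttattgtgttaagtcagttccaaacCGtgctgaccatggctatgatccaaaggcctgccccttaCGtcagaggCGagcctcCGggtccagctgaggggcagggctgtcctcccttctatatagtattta

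Outside promoters, the sequences ranged from CpG islands to simple repeats. The 200 bp at chr6:113076393-113076592, from a peak centred 873 bp upstream of the TSS of Setd5, hold 24 CpGs. The 3 recurring examples are chr9:3031434-3031633, chr17:13551812-13552011 and chr7:64468734-64468933, with 5, 0 and 1 CpGs in 200 bp. All are on the plus strand.
Upstream of Setd5: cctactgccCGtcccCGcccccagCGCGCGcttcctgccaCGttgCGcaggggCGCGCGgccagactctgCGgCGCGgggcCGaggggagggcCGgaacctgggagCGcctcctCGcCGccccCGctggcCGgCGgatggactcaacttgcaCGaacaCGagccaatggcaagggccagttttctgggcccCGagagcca
Recurring, chromosome 9: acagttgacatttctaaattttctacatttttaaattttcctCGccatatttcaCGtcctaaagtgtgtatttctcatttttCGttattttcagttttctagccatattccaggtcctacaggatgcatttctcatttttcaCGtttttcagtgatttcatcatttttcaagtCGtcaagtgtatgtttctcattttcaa
Recurring, chromosome 17: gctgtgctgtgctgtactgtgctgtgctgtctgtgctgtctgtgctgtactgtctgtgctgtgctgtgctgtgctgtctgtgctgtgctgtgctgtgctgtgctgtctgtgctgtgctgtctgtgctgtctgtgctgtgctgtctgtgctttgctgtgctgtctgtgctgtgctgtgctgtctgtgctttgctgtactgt
Recurring, chromosome 7: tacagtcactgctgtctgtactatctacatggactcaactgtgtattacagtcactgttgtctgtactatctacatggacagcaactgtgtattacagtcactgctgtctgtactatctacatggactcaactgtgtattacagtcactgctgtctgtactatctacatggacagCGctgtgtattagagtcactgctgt

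The widths were crowded near the minimum and had a long tail. The median was 710 bp, the quartiles were 646.5 and 821.5 bp, and the widest peak had 4550 bp. Only 69 peaks reached 1000 bp. At the minimum itself, the peak at Btd, Hacl1 and Gm49387 had 600 bp and those at Tcp11l2 and Rdh14 had 601 bp, while the peak at Jpt2 and those nearest to Ppp2r5c and Kat6b were 1 bp short of it and were not taken. The median fold over background was 4.42, with a range from 1.27 to 12.3.

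CpG density was high at coding promoters and low in most recurring peaks, and peaks with no coding TSS covered both ranges. Coding promoters had a median of 8.32 CpGs per 100 bp, peaks with no coding TSS 4.24 and recurring peaks 1.16. In the central 600 bp, 65.0% of the wide peaks met the criteria of a CpG island, that is a GC content above 50% and an observed to expected CpG ratio above 0.6, against a background of 49.3% of all WT peaks. By width this share was 70.2% (67.7 to 72.5) at 400 to under 600 bp and 30.4% (20.8 to 42.1) at 1000 bp or more. Within the classes of wide peaks it was 93.8% of coding promoters, 45.3% of peaks with no coding TSS and 10.6% of recurring peaks. Coding promoters with a peak under 400 bp reached 88.6% (87.2 to 89.8), so most narrow promoters were CpG islands as well.

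**Figure D1:**
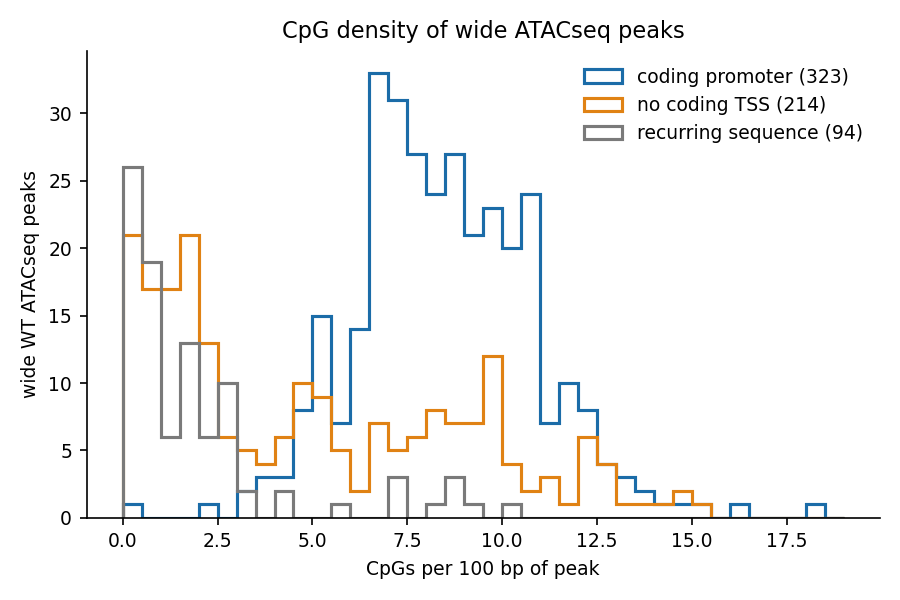
CpGs per 100 bp (x axis) of each wide WT ATACseq peak, as the number of peaks (y axis) in each class. The 323 coding promoters form a hump about their median of 8.32, the 94 recurring peaks pile up at the low end with a median of 1.16, and the 214 peaks with no coding TSS spread over both ranges.

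A coding TSS lay inside 336 of the 631 wide peaks, or 53.2% (49.3 to 57.1), against a background of 35.1% of all WT peaks. A wide peak covers more bases and so meets a TSS more often. In windows of 600 bp about the centre, which are the same for every peak, the shares were 46.8% (42.9 to 50.7) and 42.9%. Peaks of 400 to under 600 bp stood higher at 61.1% (58.5 to 63.6), and those of 1000 bp or more stood lower, at 27.5% (18.4 to 39.0). This window leaves out a TSS that lies further out in a wider peak. Counted anywhere inside the peak, a coding TSS was found in 56.9% (54.4 to 59.5) of the peaks of 400 to under 600 bp, in 55.3% (51.2 to 59.4) of those of 600 to under 1000 bp and in 36.2% (25.9 to 48.0) of those of 1000 bp or more. By this count, of these 3 groups only the widest had a share below the intervals of the others. Without recurring peaks it was 61.5% at 400 to under 600 bp and 60.1% at 600 bp or more.

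**Figure D2:**
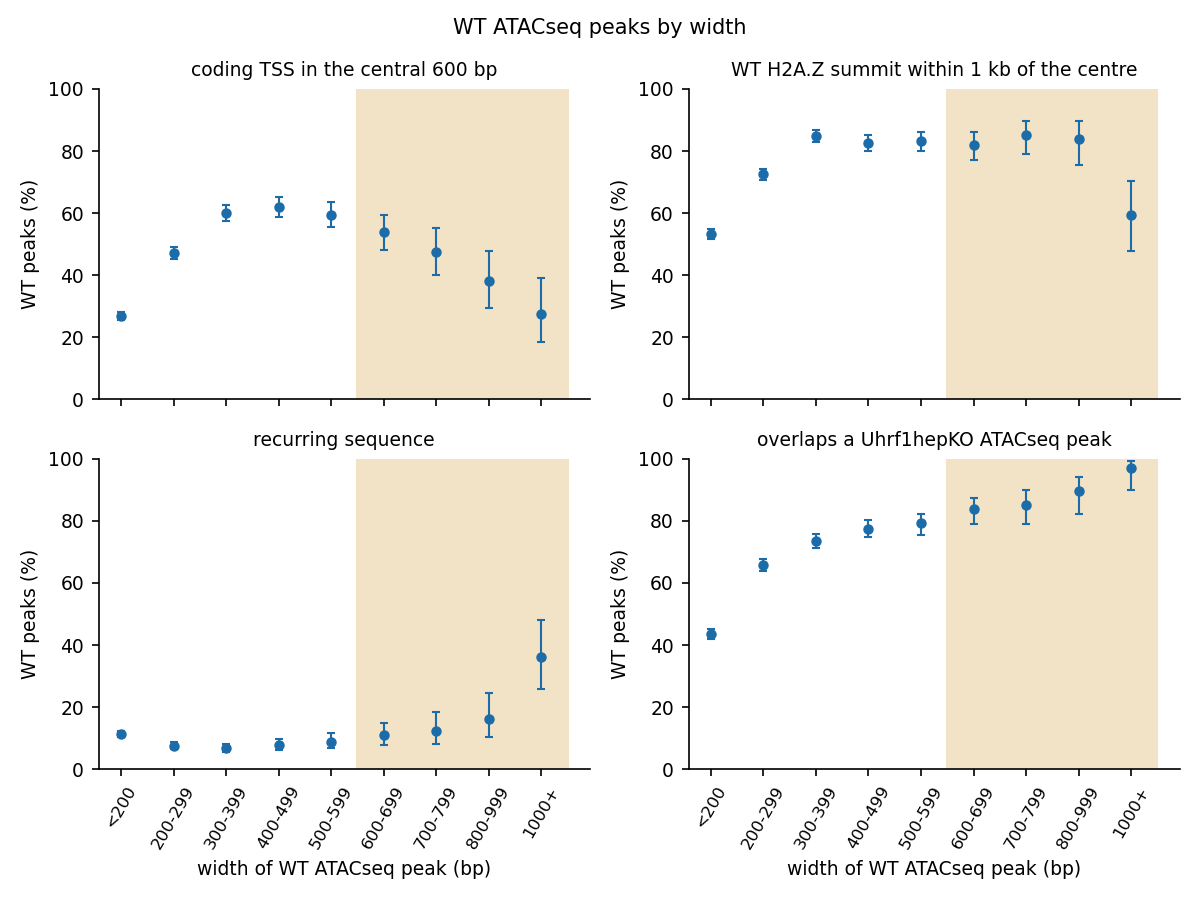
Share of WT ATACseq peaks (y axis, percent, with Wilson 95% intervals) in 9 classes of width (x axis, bp), for 4 properties, with the wide peaks shaded. The share with a coding TSS in the central 600 bp falls from 62.1% at 400 to under 500 bp to 27.5% at 1000 bp or more, while that of recurring sequence climbs from 7.86% to 36.2%.

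Some wide promoters served more than 1 gene. Of the 537 peaks that were not recurring, 258 held 1 coding TSS, 61 held 2 and 4 held 3. Of all 631 wide peaks 10.5% (8.31 to 13.1) held 2 or more, against 7.69% (6.42 to 9.18) of the peaks of 400 to under 600 bp and 3.75% of all WT peaks. A pair of genes starting head to head lay inside 42 wide peaks, or 6.66% (4.96 to 8.87), against a background of 2.71%, and here too a wide peak covers more bases. At peaks of 400 to under 600 bp it was 5.61% (4.54 to 6.92). The widest of these peaks, 1190 bp at chr6:124829031-124830220, held the starts of Usp5, a deubiquitinase, and Cdca3, a gene of mitotic entry. Its KO width was 995 bp.

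Further head-to-head promoters differed in their width in the other liver. Cbx5, which encodes heterochromatin protein HP1 alpha, and Hnrnpa1, an RNA-binding splicing regulator, shared a peak of 1099 bp at chr15:103239465-103240563, with 814 bp in Uhrf1hepKO. Cep57, a centrosomal protein, and Fam76b shared 1028 bp at chr9:13826911-13827938, with 883 bp in Uhrf1hepKO. Cryzl1 and the endocytic scaffold gene Itsn1 shared 1098 bp at chr16:91728381-91729478, where the Uhrf1hepKO list had none. These 3 peaks and that of Usp5 and Cdca3 overlapped H2A.Z peaks in both livers.

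At the 258 promoters with a single coding TSS, the opening reached further into the gene than away from it. The median distance from the TSS to the edge was 307.5 bp upstream and 408 bp downstream, and the downstream part was the longer in 149 promoters, or 57.8% (51.7 to 63.6). The 704 single promoters of 400 to under 600 bp had the same order, with 215 bp upstream and 256.5 bp downstream. Their downstream part was longer in 55.0% (51.3 to 58.6). At the 2128 single promoters under 400 bp the order was the opposite, with 130 bp upstream and 90 bp downstream. There the downstream part was longer in 40.5% (38.4 to 42.6). CpGs were denser at the wide promoters on both sides. In the 500 bp downstream of the TSS the median density was 9.20 CpGs per 100 bp at wide and 8.00 at narrow promoters, and in the 500 bp upstream it was 5.80 and 4.40. Between 500 and 1000 bp downstream it was 3.60 and 2.40.

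Promoters differed in how the bases were placed. Zfp687, a zinc finger gene, had 838 of its 959 bp upstream, and Acaa2, a thiolase of mitochondrial fatty acid oxidation, had 820 of 823 bp upstream. In contrast, Nr1d2 had 856 of 1044 bp downstream and Armc8 had 663 of 866 bp downstream. Gsk3b, a kinase of Wnt and insulin signalling, was even, with 385 bp upstream and 343 bp downstream.

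Fixed motifs were counted on both strands within 150 bp of the single TSS, a window that does not change with the width of the peak. The GC box GGGCGG was found at 77.9% (72.5 to 82.5) of the wide and 70.1% (68.1 to 72.0) of the narrow promoters. At promoters of 400 to under 600 bp it was 72.4% (69.0 to 75.6), an interval that overlaps both. The share of the GC box in the central 300 bp of all WT peaks was 41.8%. The ETS motif CCGGAAG was found at 36 of 258 (10.3 to 18.7%) wide and 539 of 2128, or 25.3% (23.5 to 27.2), narrow promoters, with promoters of 400 to under 600 bp between them at 141 of 704 (17.2 to 23.1%). Its share over all WT peaks was 12.2%. CCAAT, the site of NF-Y, was at 49.6% and 49.3%, so the wide and narrow promoters did not differ beyond counting error there, and all WT peaks had 41.4%. The intervals also overlapped for the E-box CACGTG, at 10.9% (7.62 to 15.2) and 13.9% (12.5 to 15.4), and all WT peaks had 10.4%. The remaining motifs were rarer. At wide and narrow single promoters the cAMP response element TGACGTCA was at 3.49% and 6.02%, the NRF1 site at 3.88% and 3.76%, the YY1 site at 0.775% and 2.58%, and the TATA box TATAAA at 3.49% and 3.10%. Their shares over all WT peaks were 3.06%, 1.95%, 0.905% and 6.16%, in the same order.

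The AP-1 and CTCF motifs were less frequent in the wide peaks than over all peaks, AP-1 not in every class. In the central 300 bp of the 631, the AP-1 site TGANTCA was found in 24, or 3.80% (2.57 to 5.60), against 6.44% of all WT peaks. Wide peaks with no coding TSS had it in 7.48% (4.65 to 11.8), wide coding promoters in 2.17% and coding promoters under 400 bp in 3.40%. The CTCF core was found in 7, or 1.11% (0.538 to 2.27), against 3.96% of all WT peaks. Wide coding promoters had it in 1.24% (0.483 to 3.14) and coding promoters under 400 bp in 2.45% (1.90 to 3.16), and these intervals overlapped. For liver factors the intervals of the wide peaks held the share of all peaks. Their sites were found in 17 for FOXA (TGTTTAC), or 2.69% (1.69 to 4.27), against 3.95%, in 3 for HNF4 (CAAAGTCCA), or 0.475% (0.162 to 1.39), against 0.895%, and in 0 for C/EBP (TTGCGCAA), up to 0.605%, against 0.457%. The BANP and ZBTB33 type site was in 9, or 1.43%, against 1.05%. All motifs were searched on both strands, and matches of different motifs may overlap each other. These matches describe the letters only.

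Lists of genes with a shared role held few wide promoters each, at shares on both sides of the background. Of the protein-coding genes with a WT peak at the TSS, 406 of 3924 had a wide one, a background of 10.3% that the rule fixes. The share was 0 of 13 immediate early genes, 0 of 16 translation factors, 1 of 40 ribosomal protein genes, 1 of 23 core histone genes and 2 of 25 genes of chaperones and ubiquitin. It was 3 of 21 splicing factors, 2 of 10 clock genes, 7 of 123 zinc finger genes and 14 of 205 genes of the study's cell cycle list. Of its liver enriched list, 2 of 20 were wide. Counts of this size leave wide intervals, and no list was tested.

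List members kept a wide peak in both livers in some cases and not in others. Cct7, a subunit of the TRiC chaperonin, shared 839 bp with Pradc1 and had 836 bp in Uhrf1hepKO. Hsp90b1 had 806 and 632 bp. Of the clock genes, Nr1d2 had 1044 and 1106 bp, and Ciart, another repressor, had 672 and 628 bp. Rpl7, the only ribosomal protein gene, had 754 and 660 bp. Of the splicing factors, Snrpd2, a core protein of spliceosomal RNPs, had 744 and 640 bp with Qpctl, and Snrpa, a protein of the U1 RNP, had 624 and 249 bp. The histone gene Hist3h2a, with Trim17, had 735 and 521 bp.

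Among the cell cycle and repair genes the widths in the 2 livers were mostly near each other. Mcph1, which acts in chromosome condensation and DNA damage signalling, had 847 bp in WT and 800 bp in Uhrf1hepKO. Plk2, a polo-like kinase, had 759 and 633 bp. Fancf, of the Fanconi pathway, had 696 and 576 bp with Gas2. Gsk3b had 729 and 761 bp. None of these 4 was narrower in Uhrf1hepKO by as much as 1.5-fold. The 5 widest at zinc finger genes varied more. Zfp687 had 959 and 332 bp, Zfp788 had 687 and 677 bp and Zfp830, with Cct6b, had 729 and 170 bp. Zfp438 and Zfp78 had 791 and 779 bp in WT and no Uhrf1hepKO peak.

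Few hepatocyte genes had an ATACseq peak of any width. Over all protein-coding genes, 18.95% had a WT peak at the TSS and 31.3% had one within 5 kb. Of 46 genes for hepatocyte products, 3 (6.52%) had a WT peak at the TSS, and that at Pck1 was wide, with 627 bp at chr2:173152553-173153179. The Uhrf1hepKO peak there had 159 bp, and no H2A.Z peak lay within 500 bp in either liver. None of the 7 hepatocyte markers, such as Alb, Apoa1 and Ttr, had a WT ATACseq peak of any width within 5 kb of its TSS, and of the 31 hepatocyte transcription factor genes 1 (3.23%) had one at the TSS, which was not wide. Of the markers of Kupffer, endothelial, stellate and cholangiocyte cells and of lymphocytes, 1 cholangiocyte marker had a peak within 5 kb and no marker had a wide one. These markers thus did not show the labelled tissue in the WT ATACseq list, and the part of depth in this was not tested. Acaa2 was the other wide liver enriched gene, with 823 bp in WT and 430 bp in Uhrf1hepKO.

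H2A.Z overlapped 436 of the 631 wide peaks, or 69.1% (65.4 to 72.6), against a background of 36.9%. Here again a wide peak covers more bases. An H2A.Z summit lay within 1 kb of the centre of 80.7% (77.4 to 83.6) of the wide peaks, 83.0% (80.9 to 84.8) of the peaks of 400 to under 600 bp and 68.7% of all. Summits on both sides of the centre were found at 49.6% of the wide peaks and at 37.2% of all. Peaks of 400 to under 600 bp had them at 51.9% (49.3 to 54.4). Coding promoters had a summit within 1 kb in 96.3% (93.6 to 97.9) when wide and in 94.7% (93.7 to 95.5) when under 400 bp, and these shares did not differ beyond counting error. Recurring peaks stood apart at 31.9% (23.4 to 41.9).

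Around single TSSs the position of H2A.Z was alike at wide and narrow promoters. Summits lay within 1 kb on both sides in 154 of 258 wide promoters, or 59.7% (53.6 to 65.5), and in 57.2% (55.1 to 59.3) of the narrow ones. They lay upstream only in 80 of 258 and in 30.5%, downstream only in 5.04% and 6.77%, and were absent in 4.26% and 5.55%.

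H2A.Z gathered just outside the edges of the open region. Within the wide coding promoters, summits had a density of 1.40 per kb in the central part and 1.25 per kb in the parts next to the edges, the peak being cut into 3 equal stretches. In the first 200 bp outside it was 1.96 per kb, and it dropped to 0.717 between 200 and 500 bp and to 0.245 between 500 and 1000 bp. In steps of 50 bp, the density dipped to 0.681 per kb just inside the edge and reached its maximum of 2.91 between 100 and 150 bp outside it. Peaks with no coding TSS had their maximum in that same outside step, with 2.15 per kb, and a low of 0.514 in the first 50 bp outside the edge, whereas recurring peaks had 0.426 in the step of the maximum. From 150 to 250 bp inside the edge, peaks with no coding TSS had 1.59 and 1.87 per kb, against 1.49 and 1.76 at coding promoters. In the Uhrf1hepKO H2A.Z list the densities at the same promoters were 1.3, 1.29, 1.81, 0.671 and 0.195 in the same 5 zones.

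**Figure D3:**
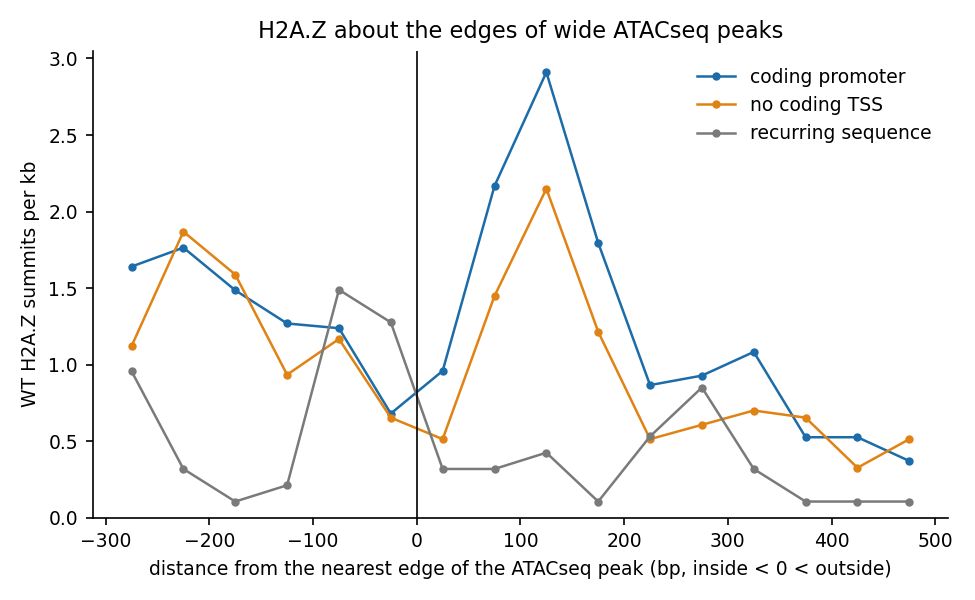
WT H2A.Z summits per kb (y axis) by distance from the nearest edge of a wide WT ATACseq peak (x axis, bp, inside below 0), in steps of 50 bp for the 3 classes. Coding promoters and peaks with no coding TSS dip near the edge and have a maximum between 100 and 150 bp outside, of 2.91 and 2.15 per kb, which the recurring peaks lack.

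Among wide promoters that were not recurring, the most H2A.Z peaks within 500 bp were at Vps16, a subunit of the HOPS tethering complex. Its peak of 604 bp at chr2:130423776-130424379 overlapped 3 WT H2A.Z peaks, with 6 within 500 bp, and 1 Uhrf1hepKO H2A.Z peak, with 4 within 500 bp. Its ATACseq peak had 832 bp in Uhrf1hepKO. The other members with as many H2A.Z peaks within 500 bp were the peaks of 1980 bp near Gm21738 on chromosome 14, with 8, and of 2503 and 2276 bp on chromosome 9, with 6 each.

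The 214 wide peaks with no coding TSS lay both inside and between genes, and some were clustered. Between 3101243 and 3197085 of chromosome 11, 0 of 8 wide peaks held a coding TSS and 1 was recurring. Between 3006434 and 3082418 of chromosome 17 it was 0 of 7, with 2 recurring. The centres of the 214 lay in exons in 58, in introns in 69 and between genes in 87. A transcript of a coding gene other than the one that gives the TSS started inside 51 of them, a noncoding gene started inside 35, and a coding TSS lay within 5 kb of 69. No gene of any kind started within 5 kb of 96. H2A.Z overlapped 95 of the 145 that were over 5 kb from a coding TSS, or 65.5%. Of the 69 within 5 kb it overlapped 50, or 72.5%. These shares were close to each other and above the background of 36.9%, but a wide peak covers more bases. Over all peaks of 400 to under 600 bp the share was 66.1% (63.6 to 68.5). Of the wide peaks with no gene start within 5 kb, the 5 widest included 1764 bp at chr11:3101243-3103006 near Sfi1, 1664 bp at chr17:13589904-13591567 nearest to Afdn and 1632 bp at chr9:124256355-124257986 nearest to 2010315B03Rik. They had 717, 1616 and 1640 bp in Uhrf1hepKO and no H2A.Z peak within 500 bp in WT.

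The widest peaks of all were mostly not promoters. Of the 20 widest, 4 held a coding TSS and 7 overlapped H2A.Z, and 16 were recurring, repeat-masked over 50% or more of their bases, or shared 10% or more of their 32-mers with mitochondrial DNA. In 13 of the 20 the Uhrf1hepKO width was within 5% of the WT width. The widest, 4550 bp at chr1:24611591-24616140 and nearest to Col19a1, shared 98.8% of its 32-mers with the mitochondrial genome and had 4553 bp in Uhrf1hepKO. The third, 2619 bp at chr2:22587569-22590187 inside Myo3a and nearest to the TSS of Gad2, shared 54.8% and had 2617 bp in Uhrf1hepKO. Neither had H2A.Z within 500 bp.

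The second widest peak bordered on ribosomal DNA. It had 3632 bp at chr17:39843034-39846665, with Esp38 as the nearest coding gene, its last 312 bp lay in Rn18s-rs5, an 18S ribosomal RNA pseudogene of the RefSeq annotation, and it had 10.7 CpGs per 100 bp. Its fold was 1.86, and the Uhrf1hepKO peak had 3871 bp. No H2A.Z peak lay within 500 bp of it in either liver.

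Among the 10 widest, 3 peaks held the TSS of a coding gene, those at Gm10717 and Gm10718, at AW822073 and at 4931408C20Rik. The recurring peak at AW822073 had 2280 bp and the Uhrf1hepKO list had 2 peaks there, the wider of 1622 bp. The peak at 4931408C20Rik had 2103 bp and only 0.0951 CpGs per 100 bp, again with 2 Uhrf1hepKO peaks, the wider of 1243 bp. A peak of 2142 bp at chr18:3004235-3006376, nearest to Vmn1r238 but 118107 bp from its TSS, overlapped 5 H2A.Z peaks in each liver and had 2139 bp in Uhrf1hepKO. A peak of 1999 bp inside Sfi1 had 1463 bp in Uhrf1hepKO.

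Recurring members formed a few clusters. At the start of chromosome 9, between 3000119 and 3038226, 15 of 15 wide peaks were recurring and all 15 overlapped H2A.Z. They included 2503 bp at Gm10717 and Gm10718 with 2510 bp in Uhrf1hepKO, and 2276 bp nearest to Gm17535 with 2277 bp in Uhrf1hepKO. On chromosome 8, between 19801628 and 20678916, all 11 were recurring and 2 overlapped H2A.Z. By contrast, 1 of 8 was recurring between 3101243 and 3197085 of chromosome 11, nearest to Sfi1, and 2 of 7 between 3006434 and 3082418 of chromosome 17. The chromosome 17 peak nearest to Tcp10c, whose sequence is printed above, had 2452 bp with 2434 bp in Uhrf1hepKO and no H2A.Z. The median 32-mer of a recurring member occurred 9 times, and 48 of the 94 were repeat-masked over 50% or more of their bases. Over the 30 recurring members with H2A.Z, the highest WT H2A.Z fold within 500 bp had a median of only 1.84.

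In the Uhrf1hepKO liver, 546 of the 631 wide peaks overlapped an ATACseq peak, or 86.5% (83.6 to 89.0), against a background of 61.1%, and 85 did not. Here too a wide peak covers more bases, and at peaks of 400 to under 600 bp the share was 78.2% (76.0 to 80.2). A Uhrf1hepKO peak of 600 bp or more was found at 286 of the 631, or 45.3% (41.5 to 49.2), against a background of 4.67%. The median ratio of the Uhrf1hepKO to the WT width was 0.864 over the 546, and 0.954 over all 6144 WT peaks with an overlap. The Uhrf1hepKO peak was narrower by 1.5-fold or more at 181, or 33.2%, against a background of 19.1%. It was wider by as much at 11, or 2.01%, against 11.3%, and within 5% at 124, or 22.7%, against 14.9%. WT peaks of 400 to under 600 bp had a median ratio of 0.844 over the 1129 with an overlap. In Uhrf1hepKO 31.9% of these were narrower by 1.5-fold or more, so this was not particular to the wide peaks. By as much 2.66% were wider, and 16.3% were within 5%.

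Peaks chosen as wide in one list tend to be narrower in any other, so the choice was also made in reverse. Of the 500 Uhrf1hepKO peaks of 600 bp or more, 462, or 92.4%, overlapped a WT peak, the median ratio of the WT to the Uhrf1hepKO width was 0.918, 57.0% had a WT peak of 600 bp or more and 26.0% were narrower in WT by 1.5-fold or more. The list that was not used for the choice thus had the narrower peaks both ways. The lists also differed in depth. The commonest fold of each list, together with its p-value, allowed the background to be solved, at 1.56 reads per base in WT and 2.0 in Uhrf1hepKO, and the shortest peaks had 121 and 110 bp. The median width of all peaks was 233 bp in WT and 206 bp in Uhrf1hepKO. The part of depth and fragment length in the widths was not tested, and genotype, mouse and library cannot be told apart.

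The classes differed in how often the 2 widths were within 5% of each other, while their medians lay closer together in the reverse choice. Coding promoters had a median ratio of 0.812, and of the 287 with an overlap 103 were narrower by 1.5-fold or more in Uhrf1hepKO, 2 wider and 41 within 5%. In the reverse choice, the median at coding promoters was 0.895, with 63 of 230 narrower in WT and 39 within 5%. Peaks with no coding TSS had a median of 0.914, with 62 of 177 narrower, 4 wider and 44 within 5%. In the reverse choice their median was 0.912, with 35 of 144 narrower in WT and 48 within 5%. Recurring peaks had a median of 1.0, and 39 of 82, or 47.6%, were within 5%. Of the 286 peaks wide in both livers, 22.4% were recurring, against 14.9% of all wide peaks.

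**Figure D4:**
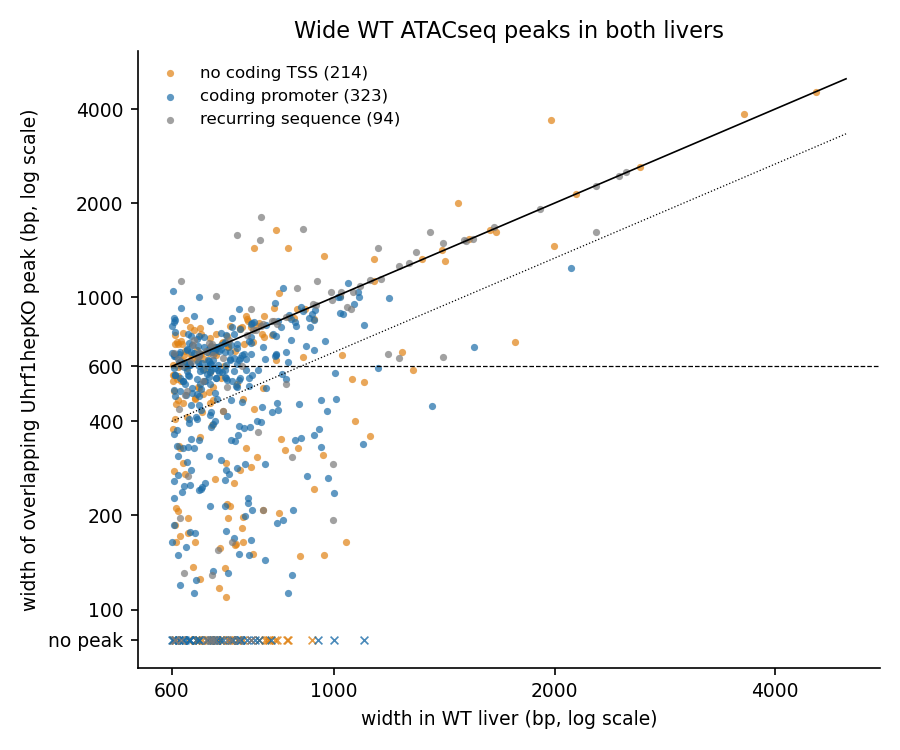
Width of each wide WT ATACseq peak (x axis, bp, log scale) against the widest Uhrf1hepKO peak that overlaps it (y axis, bp, log scale), by class, with the 85 that have none at the bottom. The solid line marks equal width, the dotted line a ratio of 1.5 and the dashed line 600 bp, and of the 67 peaks of 1000 bp or more with an overlap 28 lie within 5% of the line of equal width.

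At single promoters the downstream edge differed more between the livers than the upstream edge. Over 227 wide WT promoters with a Uhrf1hepKO peak, the Uhrf1hepKO edge lay a median of 21 bp further in on the upstream side and 72 bp further in on the downstream side, and by 100 bp or more at 55 and 100 promoters. In the reverse choice of 182 promoters wide in Uhrf1hepKO, the WT edges lay 12 and 26 bp further in, by 100 bp or more at 31 and 54. Both choices thus had the larger median difference on the side of the gene body, but many promoters went the other way. The downstream edge lay further in than the upstream edge at 137 promoters wide in WT and less far in at 89. For those wide in Uhrf1hepKO the counts were 101 and 80. Promoters of other widths were not compared.

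**Figure D5:**
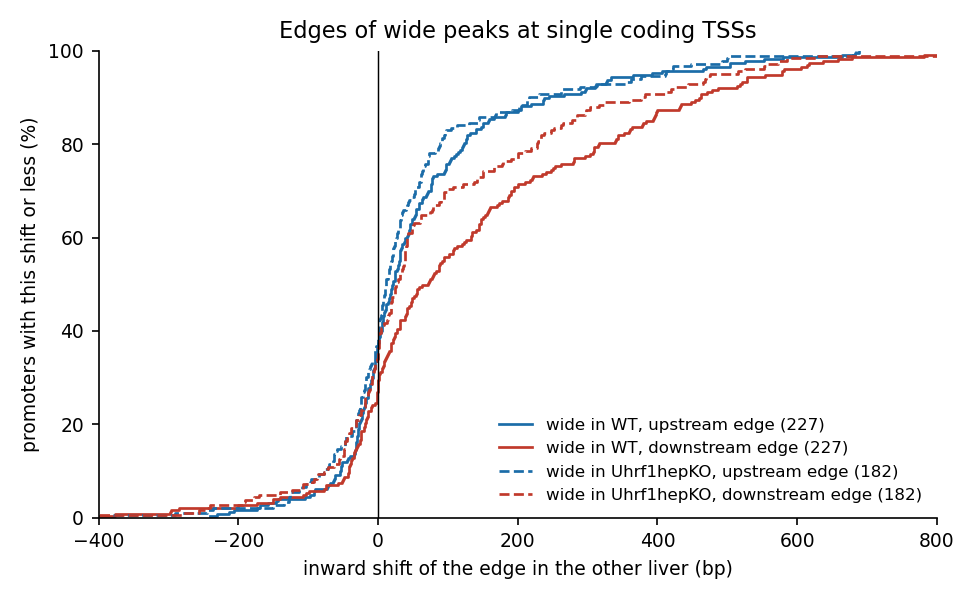
Share of promoters with a single coding TSS (y axis, percent) at which the edge of the overlapping peak in the other liver lay inward by the given distance or less (x axis, bp, negative where it lay outward). The downstream edges (red) lie to the right of the upstream edges (blue) for the 227 promoters wide in WT (solid) and, less so, for the 182 wide in Uhrf1hepKO (dashed).

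Among the lowest ratios were promoters and sites without a coding TSS. The peak of Armc8 had 866 bp at chr9:99568236-99569101 in WT and 113 bp in Uhrf1hepKO, at chr9:99568723-99568835. That remnant lies within 200 bp of the TSS at 99568899, and the stretch of Armc8 printed above lies outside it. Arf1 had 877 bp at chr11:59227988-59228864 in WT and 129 bp in Uhrf1hepKO, which span the TSS at 59228270 and bases directly upstream of it. Peaks nearest to Abcg2 and Naa30 had 1038 and 711 bp in WT and 164 and 110 bp in Uhrf1hepKO. H2A.Z overlapped these 4 peaks in both livers.

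The highest ratios were mostly at recurring sequence. The peaks nearest to Gpm6a, Apba2 and Muc6 were recurring, with 794, 736 and 793 bp in WT and 1800, 1578 and 1521 bp in Uhrf1hepKO. The peak nearest to Gm21738 had 1980 and 3681 bp, and 85.9% of its bases were repeat-masked. The remaining one was the peak upstream of Setd5, a gene with a SET domain, which was of single-copy sequence. It had 834 bp at chr6:113076076-113076909 in WT and 1639 bp at chr6:113076113-113077751 in Uhrf1hepKO, which takes in the TSS at 113077365. No H2A.Z peak overlapped it in WT and 1 did in Uhrf1hepKO.

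Of the wide peaks without a Uhrf1hepKO ATACseq peak, the 5 widest had 865 to 1098 bp. They were the shared promoter of Cryzl1 and Itsn1, the promoter of Sec24d, a coat protein of ER export, with 1001 bp, the promoter of Cpeb2, a translational regulator, with 951 bp, and peaks nearest to Ccdc71l and Mab21l3 with 932 and 865 bp. H2A.Z was listed there all the same. Within 500 bp of these 5 peaks the WT list had 3, 4, 1, 2 and 1 H2A.Z peaks and the Uhrf1hepKO list had 4, 3, 1, 1 and 1.

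The H2A.Z lists of both livers shared most of these sites, also where the ATACseq peak was missing or narrower in Uhrf1hepKO. Of the 406 wide peaks that were not recurring and overlapped H2A.Z in WT, 369, or 90.9%, also did in Uhrf1hepKO, against 83.9% of all such WT peaks, wide or not. Where the Uhrf1hepKO ATACseq peak was missing it was 43 of 48, where it was narrower by 1.5-fold or more 109 of 124, and where it was within 1.5-fold 214 of 231. All 30 recurring peaks with H2A.Z in WT had it in Uhrf1hepKO. The enrichment there was mostly low. The highest WT H2A.Z fold within 500 bp had a median of 1.84 at these 30 peaks. At the 479 wide peaks that were not recurring and had H2A.Z within 500 bp, it was 7.80.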

How the data were processed

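The members and gene lists were chosen with earlier results of these data known. Reads were aligned by the authors to GRCm38.p4 with BWA after trimming with Trimmomatic, with FastQC 0.11.5 and Picard in the submitters' processing notes, and peaks were called per library with MACS2. Which MACS2 version was run, whether it had a control and how multi-mapping reads were treated is not given in the sources used here. Per peak, the deposited lists hold start and end, a display score, a fold (ratio of pileup to background), and −log10 p- and q-values made by the authors' caller, and for H2A.Z the distance of the summit from the start. No value is scaled to another library, and folds are never set side by side between lists.

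Positions were written 1-based in GRCm38. TSSs were taken from GENCODE vM21, and bases were read from RefSeq's FASTA of that build. Overlap needed 1 bp, and the widest overlapping Uhrf1hepKO peak gave the width there. Every 32-mer was counted on both strands. The background in reads per base was solved from the commonest fold and its Poisson p-value. Named genes are those at or nearest to the 10 widest peaks, the 5 most extreme by H2A.Z count or width ratio, the 5 widest with no Uhrf1hepKO overlap, with a head-to-head pair, with no gene within 5 kb, with no H2A.Z within 1 kb and per list, and the 3 on each side of the minimum. Some genes that the rule names are not reported here. Windows about the TSS and the reading of depth were added after the peaks were seen. Overlap, TSS assignment and 32-mer counts were tested on simulated peaks. The scripts used numba 0.67.0, pandas 2.3.3, numpy 2.4.6, matplotlib 3.10.9 and scipy 1.17.1 under Python 3.11.15.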

Additional observations from a re-analysis of the deposited data

Results flagged for a closer look

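The WT list held wide peaks in regions that no comparison above uses. On chromosome 14 between 3 and 8 Mb there were 49 ATACseq peaks of 600 bp or more. A further 47 lay on mitochondrial DNA (3) and on unplaced scaffolds and patches (44). With 4 on chromosome X, 1 on chromosome Y and the 631 described, they make up the 732 wide peaks of the deposited list.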

How the results depend on the processing

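With 1 library per condition no replicate could be left out, folds and widths carry no replicate error, and depth is known only through the lists. No paired analysis was possible because no result comes from a test and each group has 1 sample. In 30 of 58 comparisons the value stayed within the counting interval, or within 1.5-fold for the number of peaks. With a minimum of 500 bp there were 1184 peaks, and 83.1% overlapped a Uhrf1hepKO peak. With 800 bp there were 174, of which 46.0% held a coding TSS, 92.5% overlapped a Uhrf1hepKO peak and 50.6% had a wide one there. Among the 335 whose fold reached the median of all WT peaks, with the Uhrf1hepKO list reduced likewise, the shares were 64.5% with a TSS, 77.3% with H2A.Z and 82.7% with a Uhrf1hepKO peak. Without repeat-masked or mitochondrial-like peaks they were 59.5% with a TSS, 73.7% with H2A.Z and 40.7% with a wide Uhrf1hepKO peak. With chromosome X and nothing left out, 64.2% had H2A.Z. Any transcript start raised the share with a TSS to 61.8%, a TSS within 1 kb to 63.5% and within 5 kb to 66.2%. A summit inside was found in 62.3% and within 1 kb of the centre in 80.7%. Uhrf1hepKO peaks covered 50% or more of 65.8%. Chosen on the Uhrf1hepKO width, the ratio was taken the other way, WT to Uhrf1hepKO, and was 0.918. In alternatives chosen after seeing the data, peaks that were not recurring held a TSS in 60.1%, H2A.Z in 75.6% and a wide Uhrf1hepKO peak in 41.3%. With a limit of 10% in place of 50% these were 65.0%, 78.5% and 39.0%, with a Uhrf1hepKO to WT width ratio of 0.802.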
